A study of Saccharomyces cerevisiae with 12 samples.

Results

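Long reading frames, the protein-coding genes whose start and stop codons lie at least 4000 bp apart, were examined for Top2 cleavage in budding yeast. The R64 annotation without chromosome III held 5840 nuclear reading frames by the rule applied, and 230 of them reached this length. The study had removed repeated elements from its maps, and this emptied 43 retrotransposon frames and 11 frames of subtelomeric Y′ elements. The remaining 176 frames were measured, 86 on the Watson and 90 on the Crick strand of 15 chromosomes. They ran from 4002 to 14733 bp with a median of 4684.5 bp, and covered 924507 bp, or 8.01% of the unmasked nuclear DNA.

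The 12 libraries came from vegetative BY4741 cultures grown in YPD, in 6 groups of 2 biological replicates. The strains pdr1sae2, pdr1mre11 and pdr1 received 1 mM VP16 for 4 h, or only its solvent DMSO in the libraries called untreated (UT). All 3 strains, controls included, carried the pdr1DBD-CYC8 construct that lowers drug export, and pdr1sae2 and pdr1mre11 also lacked SAE2 or MRE11, whose products remove proteins bound to DNA ends. No library came from a strain with normal drug export.

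Type II topoisomerases let DNA strands pass through each other. The enzyme, Top2 in yeast, cuts both strands a few bases apart, stays joined to each 5′ end through a tyrosine, and closes the cut again. VP16 (etoposide) slows the closing step, so that these covalent complexes accumulate. CC-seq purifies DNA joined to protein and records the 5′ end of each strand, and such an end is called a hit here. Long genes are a natural place to look along a gene, because their middle lies far from both promoters and terminators and because an RNA polymerase that crosses them leaves twisted DNA ahead of and behind itself.

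The strongest VP16 sites inside the long frames are shown first, since they carry the base pattern that the hits in all frames shared. A site is a Watson position and a Crick position 3 bp apart, the stagger Top2 leaves, and the 8 with the largest mean share of VP16 hits at sequence found only 1 time in the genome are given. Each sequence is 30 bases of the R64 Watson strand, 5′ to 3′. The first capital is the base 5′ of the cleaved Watson bond. The second capital is the complement of the base 5′ of the cleaved Crick bond, so a capital G there means C on the Crick strand.
HOB2: atcgaacaaaggCggagGttcggtaagtgg
TEL1: ttcaaaccaatcCaacgGatcgggaaagga
MYO4: cagtagctaagcCctctGtattgctgttct
LAA1: cactttcttgagGgatcGgtttgccatttt
RSF2: gaataccttgacCagcgGgcttagcgaaat
SNF2: caggaggcaagaCgaggGgtctggtgccat
BUD4: aaaagactcgaaCaaccGgtcataatttga
YLR419W: acttgtctcgatActcgGtattggagtttt
These stretches lie within the coding sequence, apart from 3 bases of the LAA1 stretch upstream of its start codon, at chrXVI:764938-764967 (HOB2), chrII:51616-51645 (TEL1), chrI:87887-87916 (MYO4), chrX:47407-47436 (LAA1), chrX:662660-662689 (RSF2), chrXV:855218-855247 (SNF2), chrX:603032-603061 (BUD4) and chrXII:961712-961741 (YLR419W).

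In 6 of these 8 sites a cytosine stood 5′ of both cleaved bonds. LAA1, an accessory protein of the AP-1 clathrin adaptor, had G and C there, and YLR419W, annotated as an RNA helicase, had A and C. The HOB2 site held 47 to 223 hits in the 6 VP16 libraries, against 0 to 10 in the 6 untreated libraries. This single pair of positions took 7.82% to 15.7% of all hits in the 7470 bp frame in each VP16 library. The site in TEL1, which codes for the checkpoint kinase related to human ATM, held 29 to 193 hits with VP16 and 0 to 4 untreated. The site in MYO4, the myosin that carries mRNAs into the bud, held 487 hits over the VP16 libraries and 11 over the untreated ones, and lay 49 bp before the end of the frame. The site of SNF2, the ATPase of the SWI/SNF remodelling complex, held 363 hits with VP16 against 5 untreated, split into 182 Watson and 181 Crick hits. The sites were chosen for their VP16 hits, so their level is a description and was not tested.

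For each long frame, the site strongest with VP16 was also taken. Over the 176 frames, its base 5′ of the bond was cytosine on both strands in 112, on 1 strand in 61 and on neither in 3. The site took a median of 3.19% of the frame's hits in VP16 libraries, with a range over frames of 1.34% to 15.3%. The same site took a median of 0.0687% in untreated libraries. These sites too were chosen for their VP16 hits, so part of this difference follows from the choice and it was not tested. The strongest untreated sites are not given here. It lay in the last 500 bp of 39 frames and in the first 500 bp of 26, where 500 bp made up 9.52% of the members' length.

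The same base preference held for all hits in the long frames. Cytosine preceded 58.1% of hits in the VP16 libraries (45.1% to 66.5%) and 22.5% in the untreated libraries (21.7% to 23.1%), and made up 19.0% of the bases of these frames. The treatments did not overlap. The shares in reading frames under 4000 bp were 59.6% with VP16 and 23.5% untreated, close to those of the long frames.

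The depth bears on how each frame can be read. Libraries held 751850 to 3646842 hits, or 59.4 to 300.2 hits per kb of unmasked nuclear DNA, and a long frame held 173 to 4092 hits in a library. In every strain, replicate 2 was the shallower of the 2 untreated libraries.

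VP16 hits were scarce in the long frames. These frames took 5.37% and 5.70% of nuclear hits in the pdr1sae2 VP16 libraries, 4.38% and 4.94% in pdr1mre11, and 4.62% and 5.96% in pdr1. The untreated libraries gave 7.48% and 7.71% in pdr1sae2, 6.90% and 7.31% in pdr1mre11, and 7.55% and 7.73% in pdr1. All 12 shares lay below the 8.01% that these frames hold of the DNA, the untreated ones by little and the VP16 ones by more.

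As a density, in log2 units relative to the mean of the same library, the long frames stood at -0.64 with VP16 (-0.87 to -0.43) and at -0.11 untreated (-0.22 to -0.05). All 6 VP16 libraries lay below all 6 untreated ones. The difference was -0.46 in pdr1sae2, -0.61 in pdr1mre11 and -0.54 in pdr1, against a pooled SD between replicates of 0.12. The 3 lowest VP16 densities came from the 3 libraries with the highest cytosine shares. The pdr1mre11 VP16 libraries had densities of -0.87 and -0.70 at cytosine shares of 66.5% and 65.4%, and the pdr1 VP16 libraries had -0.79 and -0.43 at 65.8% and 47.5%. The pdr1sae2 VP16 libraries had -0.58 and -0.49 at 45.1% and 58.2%. The part of library composition in the spread of densities was not tested. These densities are shares of the hits of a library, so a lower one does not mean fewer complexes in these frames. How many cells held complexes, and how many each cell held, cannot be told from DNA of whole cultures.

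Shorter frames were less depleted. Frames under 1000 bp had a density of 0.01 in both treatments. Frames from 1000 to under 2000 bp had -0.26 with VP16 and -0.05 untreated, and frames from 2000 to under 4000 bp had -0.44 and -0.08. Intergenic regions between divergent genes stood at 0.65 with VP16 and 0.14 untreated. The length classes were described and not tested against each other.

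**Figure D1:**
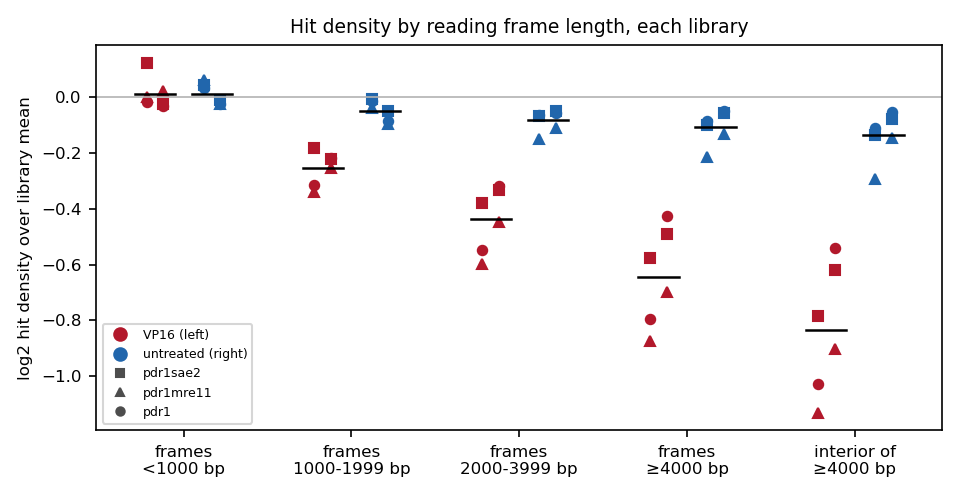
Hit density of reading frames by length, in log2 units over the mean of the same library. Each point is a library (VP16 left and red, untreated right and blue, marker shape by strain) and bars are means of 6 libraries; VP16 means fall to -0.64 in frames of at least 4000 bp and -0.84 in their interior, while untreated means stay between -0.14 and 0.01.

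The density also varied along the frames. The interior, defined as windows at least 1000 bp from both codons, had a density of -0.84 with VP16 (-1.13 to -0.54) and -0.14 untreated (-0.29 to -0.05). The first 500 bp stood at -0.29 with VP16 and -0.01 untreated. The last 500 bp stood at -0.04 with VP16 (-0.19 to 0.09) and -0.03 untreated (-0.05 to -0.02). The treatments overlapped there, and VP16 was higher in 3 of 6 same-numbered pairs of libraries.

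With VP16 the density declined on entering the gene. The 500 bp before the start codon had a mean density of 0.68 with VP16 and 0.19 untreated. Successive 500 bp windows after it had -0.29, -0.82 and -0.92 with VP16 against -0.01, -0.10 and -0.17 untreated. At the other end the density rose again. With VP16, windows at successive 500 bp steps towards the stop codon had -0.77, -0.73, -0.50 and -0.04, and the 500 bp beyond it had 0.52. The untreated values over the same steps were -0.12, -0.12, -0.09, -0.03 and 0.11.

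**Figure D2:**
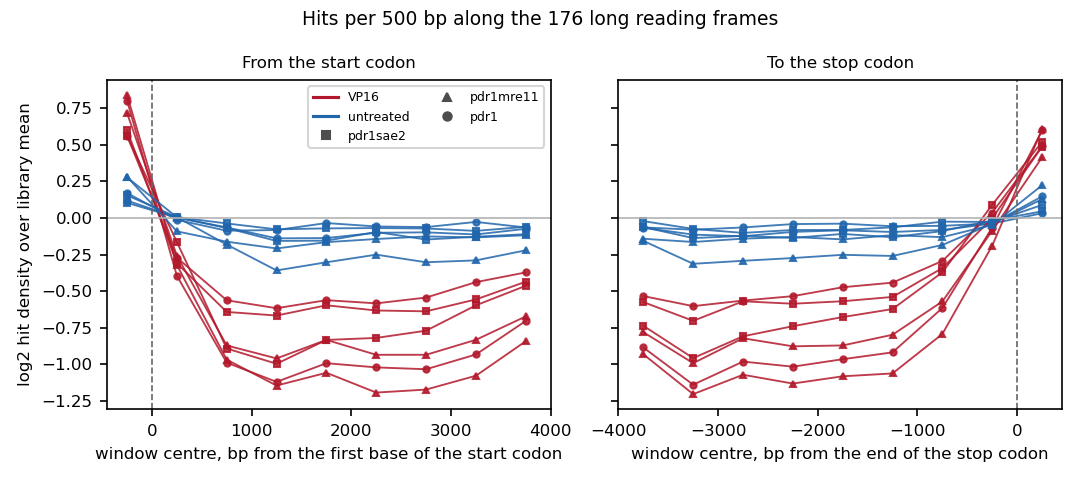
Mean hit density of the 176 long reading frames in 500 bp windows, from 500 bp before the start codon (left) and to 500 bp after the stop codon (right), in log2 units over the library mean. Each line is a library (VP16 red, untreated blue, marker shape by strain); all VP16 lines drop below -0.5 within 1000 bp of the start codon and climb back to between -0.19 and 0.09 in the last 500 bp, while untreated lines stay within -0.36 to 0.01 inside the frame.

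The start to interior ratio, as a log2 value, was 0.55 with VP16 (0.27 to 0.81) and 0.12 untreated (0.04 to 0.30). The end to interior ratio was 0.80 with VP16 (0.58 to 0.96) and 0.10 untreated (0.02 to 0.25). Both were higher with VP16 in 6 of 6 same-numbered pairs of libraries, by 0.43 and 0.70 on average, with SDs between replicates of 0.16 and 0.15. The start ratio depended on the window chosen, with a difference of 0.62 for the first 250 bp and 0.23 for the first 1000 bp. In frames from 2500 to under 4000 bp the start ratio was 0.52 with VP16 and 0.13 untreated, and the end ratio 0.63 and 0.09.

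The ends were split by the direction of the neighbouring gene. Where the next gene converged on the long frame, as for 94 members, the last 500 bp had a density of 0.04 with VP16 and -0.05 untreated. Where the next gene ran in the same direction, as for 81 members, it was -0.15 with VP16 and -0.01 untreated. At the start, 104 members with a divergent neighbour had -0.36 with VP16 and -0.00 untreated in their first 500 bp, and 70 members with a tandem neighbour had -0.22 and -0.04. The end to interior ratio with VP16 was 0.85 before convergent and 0.71 before tandem neighbours, with library ranges of 0.66 to 1.04 and 0.46 to 0.89 that overlapped.

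Single frames were tested with edgeR's quasi-likelihood model on hits per region, with strain as a term and Benjamini-Hochberg adjustment over 11314 reading frames and intergenic regions. The fold change is a change in the share of hits after scaling by the trimmed mean of M values (TMM), after which the median of all regions was 0.00. Of the 176 long frames, 163 were lower with VP16 and 1 was higher at an adjusted p under 0.05, and 12 were not called. Across all regions 33.3% were called lower and 34.4% higher. Among frames from 2000 to under 4000 bp, 76.9% were called lower, against 92.6% of the long frames. In 127 long frames all 6 VP16 libraries lay below all 6 untreated ones, which held for 16.1% of all regions, and no long frame showed the opposite order.

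These calls describe how hits were shared out, not how many complexes formed. When library sizes were set by the human spike-in, 168 long frames were called higher with VP16 and 0 lower, where 95.7% of all regions were called higher. The median of the long frames was 0.89 against 1.48 for all regions. Calibrated in this way, hits in the long frames were 1.81 times the untreated level in pdr1sae2, 3.12 times in pdr1mre11 and 1.16 times in pdr1, while all nuclear hits were 2.49, 4.75 and 1.67 times. The spike-in factor was the same for both replicates of a group. The calls with spike-in library sizes therefore leave out the error of the calibration, as do these ratios, which were not tested.

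**Figure D3:**
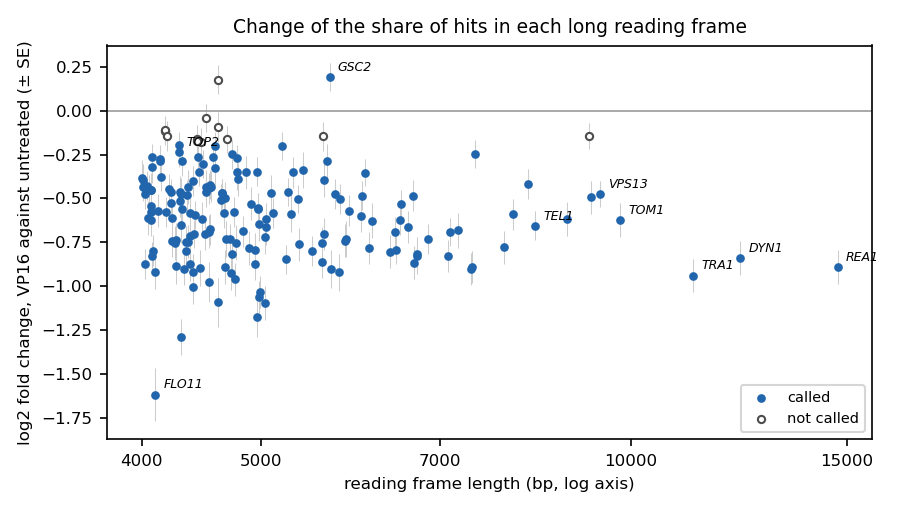
Log2 fold change of each of the 176 long reading frames, VP16 against untreated, by frame length on a log axis; bars are standard errors, filled points passed an adjusted p of 0.05 (edgeR quasi-likelihood) and open points did not. Values run from -1.62 (FLO11) to 0.19 (GSC2), and the 3 longest frames lie between -0.94 and -0.84.

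Fold changes ran from -1.62 to 0.19 with a median of -0.58. Among regions of at least 50 hits in every library the same frames had a median of -0.34, with 132 called lower and 3 higher. That filter kept 4732 regions, and TMM factors were computed again from these alone, so its zero point differs. The 34 frames of at least 6000 bp had a median of -0.67 with 33 called lower, the 29 frames from 5000 to under 6000 bp had -0.59 with 27 lower, and the 113 shorter ones had -0.53 with 103 lower. Within the long frames, length was only loosely related to VP16 density (Pearson r = -0.18, Spearman rho = -0.22, n = 176 frames that share libraries), as was GC content (r = 0.17, rho = 0.18). These correlations are across frames of the same libraries and are given as a description.

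Frame densities repeated between replicates with VP16 and hardly did so untreated. Their correlation between the 2 replicates was 0.78 in pdr1sae2, 0.87 in pdr1mre11 and 0.86 in pdr1 with VP16, and 0.21, 0.05 and 0.02 in the untreated strains. The SD over frames was 0.18 to 0.36 with VP16 and 0.10 to 0.16 untreated, where counting alone gives 0.05 to 0.08 and 0.04 to 0.09. The mean VP16 density of a frame had an r of 0.11 with its mean untreated density.

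The 3 longest frames were all depleted. REA1 (also MDN1; chromosome XII, 349006 to 363738), the giant ATPase of ribosome assembly, has 14733 bp and a fold change of -0.89 ± 0.10 (SE; adjusted p = 1.48e-08). Its density was -1.05 and -0.66 in pdr1sae2, -1.23 and -0.94 in pdr1mre11 and -1.18 and -0.55 in pdr1 with VP16, and -0.13 to 0.03 untreated. Of its 29 windows of 500 bp, 27 were lower and 2 higher. DYN1, the heavy chain of dynein (chromosome XI, 535647 to 547925), had a fold change of -0.84 ± 0.10 and densities of -1.41 to -0.65 with VP16 against -0.46 to 0.02 untreated. TRA1, the scaffold of the SAGA and NuA4 histone acetyltransferase complexes (chromosome VIII, 302761 to 313995), had -0.94 ± 0.10, with 19 of 22 windows lower and none higher. In all 3 genes the 2 treatments did not overlap, as held for 127 of the 176 long frames and 16.1% of all regions.

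The largest falls were in FLO11, LTE1, NUP188, NTE1 and FLO1. FLO11 (chromosome IX, 389572 to 393675), the cell surface flocculin of adhesion and filamentous growth, had densities of -1.14 and -0.96 in pdr1sae2, -2.10 and -1.66 in pdr1mre11 and -1.51 and -0.62 in pdr1 with VP16. Untreated it had 0.50 and 0.18 in pdr1sae2, 0.41 and -0.31 in pdr1mre11 and 0.65 and -0.12 in pdr1. Its untreated level was thus higher in the deeper replicate 1 of every strain, and the part of this in its fold change of -1.62 ± 0.15 (adjusted p = 1.25e-09) was not tested. FLO11 and FLO1 hold internal repeats. By 40-base words, 31.9% of FLO11 and 58.9% of FLO1 occurred more than once in the genome, and reads from such stretches cannot be placed with certainty.

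LTE1 (chromosome I, 101565 to 105872), a regulator of exit from mitosis, had -1.73 to -0.85 with VP16 and -0.27 to 0.23 untreated, a fold change of -1.29 ± 0.10 (adjusted p = 5.59e-11). NUP188, a scaffold protein of the nuclear pore, had -1.69 to -0.74 with VP16 and -0.18 to 0.06 untreated, a fold change of -1.18 ± 0.11. NTE1, a phospholipase of the endoplasmic reticulum, had -1.64 to -0.80 with VP16 and -0.23 to 0.05 untreated, a fold change of -1.10 ± 0.10. None of these 3 frames, which were chosen for their falls, overlapped between treatments, as held for 127 of the 176 long frames. FLO1, chosen in the same way, did overlap, at -1.66 to -0.51 with VP16 and -0.55 to 0.41 untreated. Its fold change was -1.09 ± 0.14, and its untreated pdr1 replicates stood at 0.41 and -0.55.

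GSC2 alone was called higher. It codes for the catalytic subunit of 1,3-beta-glucan synthase that is induced under stress (chromosome VII, 548264 to 553951). Its density was 0.00 and 0.06 in pdr1sae2, 0.02 and 0.21 in pdr1mre11 and 0.09 and -0.07 in pdr1 with VP16, and -0.27 and -0.07, -0.19 and -0.18, and -0.16 and -0.19 untreated in the same order of strains. The fold change was 0.19 ± 0.08 (adjusted p = 0.0304), higher in 6 of 6 pairs. The call was lost without VP16-treated pdr1sae2 replicate 2 (0.18), VP16-treated pdr1mre11 replicate 2 (0.15), untreated pdr1sae2 replicate 1 (0.18) and either untreated pdr1mre11 replicate (0.19 and 0.18), so it rested on single libraries. It was also lost when each position was counted only 1 time per library (0.10). Its paralogue FKS1, the subunit made during normal growth, had -0.40 ± 0.10 and FKS3, a further relative, had -0.50.

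SIN3, the scaffold of a histone deacetylase complex, was likewise dense with VP16, at -0.18 to 0.17 against -0.38 to -0.10 untreated. Its fold change of 0.18 ± 0.08 missed the threshold (adjusted p = 0.0574), although it was positive in 6 of 6 pairs. It passed with total nuclear hits as library sizes (0.22), among regions of at least 50 hits in every library (0.42), with a replicate block (0.17), and without untreated pdr1 replicate 1 (0.20) or VP16-treated pdr1mre11 replicate 1 (0.23). HAP1, the haem-dependent activator, had -0.12 to 0.30 with VP16 and -0.21 to 0.19 untreated, a fold change of -0.04 ± 0.08. GDB1, the glycogen debranching enzyme, had -0.37 to 0.06 with VP16 and -0.20 to 0.09 untreated. With GSC2 and PDR10, these were the 5 long frames of highest mean density with VP16, and each overlapped between treatments.

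TOP2 itself is a long gene (chromosome XIV, 457704 to 461990, 4287 bp). It had densities of -0.25 and -0.12 in pdr1sae2, -0.17 and -0.34 in pdr1mre11 and -0.48 and -0.26 in pdr1 with VP16. Untreated it had -0.13 and 0.00, -0.28 and 0.03, and -0.13 and 0.12 in the same order of strains. The fold change was -0.24 ± 0.09 (adjusted p = 0.0161), lower in 5 of 6 pairs, and the treatments overlapped. Without untreated pdr1 replicate 2 it was -0.19 and no longer called, and among regions of at least 50 hits in every library it was 0.01. Within the gene 1 window, between 1500 and 2000 bp from the start codon, was higher at 0.72 and 3 were lower, down to -0.70.

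**Figure D4:**
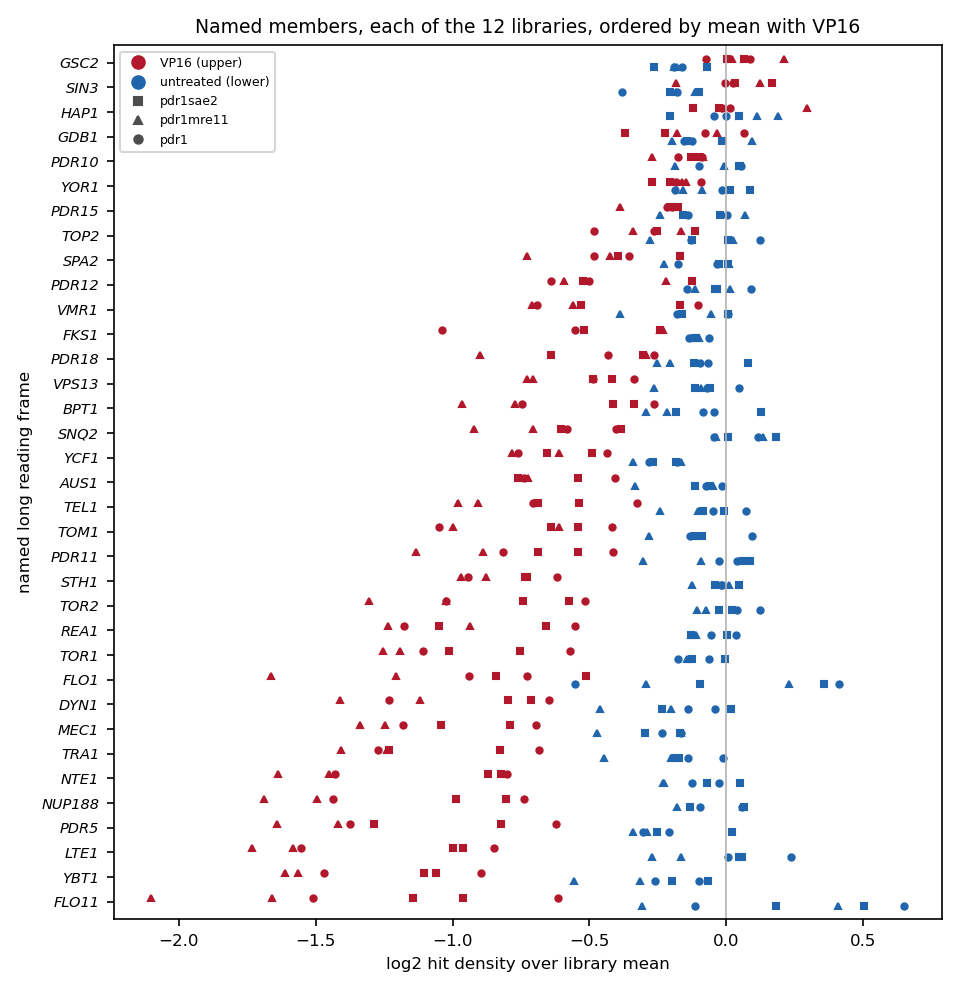
Hit density of the 35 named long reading frames in each of the 12 libraries, in log2 units over the library mean, ordered by mean density with VP16. VP16 libraries are red and drawn above the blue untreated ones, with marker shape by strain; from FLO11 at the bottom, where VP16 values reach -2.10, the 2 treatments draw together towards GSC2 at the top.

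All 5 large kinases of the PIKK family were lower with VP16, where 92.6% of all long frames were. The checkpoint kinase genes MEC1 and TEL1 had fold changes of -0.83 ± 0.09 and -0.66 ± 0.08, the growth kinase genes TOR1 and TOR2 had -0.90 ± 0.09 and -0.89 ± 0.09, and TRA1, a pseudokinase, is given above. TOR1 ranged from -1.25 to -0.57 with VP16 and from -0.18 to -0.00 untreated. MEC1 ranged from -1.34 to -0.69 with VP16 and from -0.47 to -0.17 untreated. TEL1 was the mildest of the 5 and the most uneven, as its strongest site showed: 13 of its 17 windows were lower, and the window between 7500 and 8000 bp from the start codon was higher at 1.32 ± 0.13.

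Of the 13 long ABC transporter genes, which include the exporters controlled by Pdr1, 11 were lower and 2 were not called, with a median of -0.44. Of all long frames, 92.6% were called lower. The transporters ranged from -1.06 to -0.16. This was not wider than in other lists, as signalling genes ranged from -1.29 to -0.14 and cell wall genes from -1.62 to 0.19. YBT1, the bile acid transporter of the vacuole, had -1.06 ± 0.09, and PDR5, the main drug exporter of the plasma membrane, had -0.98 ± 0.11. PDR5 ranged from -1.64 to -0.62 with VP16 and from -0.34 to 0.02 untreated. PDR15 and PDR10, close relatives of PDR5, had -0.20 ± 0.08 (adjusted p = 0.0309, lower in 5 of 6 pairs) and -0.16 ± 0.08 (adjusted p = 0.0651). Neither position is firm. The PDR15 call was lost with total nuclear hits (-0.16), among regions of at least 50 hits in every library (0.04), with each position counted 1 time per library (-0.15) and without VP16-treated pdr1mre11 replicate 1 (-0.16) or untreated replicate 1 of pdr1sae2 (-0.18), pdr1mre11 (-0.14) or pdr1 (-0.17). PDR10 was called by DESeq2 (-0.18), with a replicate block (-0.17), with each position counted 1 time (-0.24) and without either replicate 2 of pdr1mre11 (-0.20 with the VP16 library left out, -0.19 with the untreated one left out). The cadmium and glutathione conjugate transporter YCF1 had -0.42 ± 0.08, the multidrug exporter SNQ2 -0.70 ± 0.09, and YOR1, the oligomycin exporter, -0.16 ± 0.08, which was not called by edgeR (adjusted p = 0.0680). It was called by DESeq2 (-0.17), with a replicate block (-0.16), with each position counted 1 time (-0.27), and without VP16-treated pdr1 replicate 1 (-0.18) or untreated pdr1 replicate 2 (-0.19). The sterol importers AUS1 and PDR11 had -0.58 ± 0.08 and -0.75 ± 0.09, the weak acid exporter PDR12 -0.44 ± 0.09, and PDR18, VMR1 and BPT1 -0.38 ± 0.10, -0.35 ± 0.10 and -0.50 ± 0.09. Among regions of at least 50 hits in every library, PDR18 and VMR1 were not called (-0.14 and -0.11).

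The 3 large subunits of the RNA polymerases were all lower, as were 92.6% of all long frames, but unequal. RPA190, of polymerase I, had -1.03 ± 0.09, RPO31, of polymerase III, had -0.58 ± 0.09, and RPO21, of polymerase II, had -0.20 ± 0.08 (adjusted p = 0.0264). RPA190 stood at -1.38 to -0.72 with VP16 and at -0.29 to 0.07 untreated. RPO21 stood at -0.40 to -0.10 with VP16 and at -0.19 to -0.04 untreated.

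The counts in the other lists stand beside the 92.6% of all long frames that were called lower, and none is read as particular to its list. All 10 genes of DNA replication, repair and chromosome structure were lower, from -1.01 for POL1, the catalytic subunit of polymerase alpha, to -0.24 for TOP2, with a median of -0.70. All 9 cytoskeleton genes and all 8 genes of RNA processing and translation were lower, with medians of -0.70 and -0.64, and all 11 genes of lipid transport and vesicles, with a median of -0.62. Of 11 chromatin and transcription genes, 9 were lower (median -0.68), with INO80 and SIN3 not called. Of 10 metabolic genes, 9 were lower (median -0.71), among them ACC1 and its mitochondrial counterpart HFA1, both acetyl-CoA carboxylases, at -0.82 and -0.80, and LYS2, of lysine synthesis, was not called at -0.12. Of 6 nuclear pore genes, 5 were lower (median -0.67). Of 5 cell wall genes, 4 were lower and GSC2 higher (median -0.50). Of 7 signalling genes, 5 were lower (median -0.49). The Ras inhibitor IRA1 had -0.49 ± 0.09, and its paralogue IRA2 had -0.14 ± 0.07 (adjusted p = 0.0799). The 82 long frames in no list had a median of -0.52, with 78 called lower.

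The depletion was not even along the frames. In 500 bp windows, tested in the same way over 22148 windows and intergenic regions, 1110 of the 1847 windows of long frames were lower with VP16 and 137 higher, against 31.0% lower and 30.8% higher over the whole table. With total nuclear hits in place of TMM the split was 1359 lower and 77 higher, against 43.2% and 22.9%. The 2 scalings set the median of all windows at -0.03 and -0.23. Of the interior windows, 740 of 1063 were lower and 36 higher, with a median of -0.58. Of the first windows, 68 of 176 were lower and 29 higher (median -0.21), and of the last windows 41 were lower and 40 higher (median 0.03). With total nuclear hits, 878 interior windows were lower and 14 higher (median -0.78), while 57.4% of the first windows were lower and 10.2% higher (median -0.40), and 62 last windows were lower and 30 higher (median -0.16).

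Almost all frames with a higher window also had a lower one. Of the 176 frames, 175 had at least 1 lower window, 90 had at least 1 higher window and 89 had both. In 121 frames the lower windows were at least as many as all others. GSC2 and SIN3 each had 6 higher windows and 1 lower, and IRA2 had 3 higher and 0 lower. Such counts were not made for shorter frames. First and last windows made up 19.1% of the windows and 69 of the 137 higher ones. With VP16, the window densities of the 2 replicates were correlated at r = 0.68 in pdr1sae2, 0.83 in pdr1mre11 and 0.76 in pdr1, and untreated at 0.13, 0.29 and 0.05 (1847 windows). The median SD of windows within a frame was 0.36 to 0.60 with VP16 and 0.21 to 0.30 untreated, where counting gives 0.18 to 0.29 and 0.13 to 0.28.

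The largest rise was in the last window of THO2, a subunit of the complex that couples transcription to mRNA export. From 4501 to 4794 bp it held 66 to 250 hits with VP16 and 13 to 119 untreated, with relative densities of 0.81 to 1.74 and -0.37 to 0.44 (fold change 1.46 ± 0.16, adjusted p = 1.02e-09). HOB2 from 4501 to 5000 bp, the window of the site printed first, had 0.80 to 1.47 with VP16 and -0.45 to 0.13 untreated (1.44 ± 0.14). The printed site alone held 47 of the window's 116 hits in VP16-treated pdr1sae2 replicate 1 and 223 of 354 in VP16-treated pdr1mre11 replicate 2. The RSF2 gene, for a zinc finger regulator of growth on glycerol, had its rise in the first window, at 0.97 to 1.47 with VP16 and -0.68 to 0.37 untreated (1.42 ± 0.14). PDR18 from 3501 to 4000 bp and SIN3 from 4001 to 4500 bp, both within 500 bp of the stop codon, had 1.39 ± 0.16 and 1.39 ± 0.14. In each of these 5 windows every VP16 library exceeded every untreated one, in PDR18 by little (0.43 against 0.38). The windows were chosen as the largest rises moving alike in all 6 pairs, so this order largely follows from the choice.

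The largest falls lay in FLO11, SNF2 and GLT1. The FLO11 window from 1501 to 2000 bp held 8 to 47 hits with VP16 and 28 to 250 untreated (-2.21 ± 0.22, adjusted p = 1.43e-10), and the windows of FLO11 from 1001 to 1500 bp and from 2501 to 3000 bp had -1.75 ± 0.20 and -1.73 ± 0.19. SNF2 from 501 to 1000 bp had relative densities of -2.02 to -0.94 with VP16 and -0.11 to 0.99 untreated (-1.89 ± 0.17). GLT1, the glutamate synthase, had -2.43 to -0.90 with VP16 and -0.05 to 0.73 untreated from 2001 to 2500 bp (-1.88 ± 0.18). SNF2 therefore held both a strongly depleted window near its start and a strong site 88 bp before the end of the frame.

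**Figure D5:**
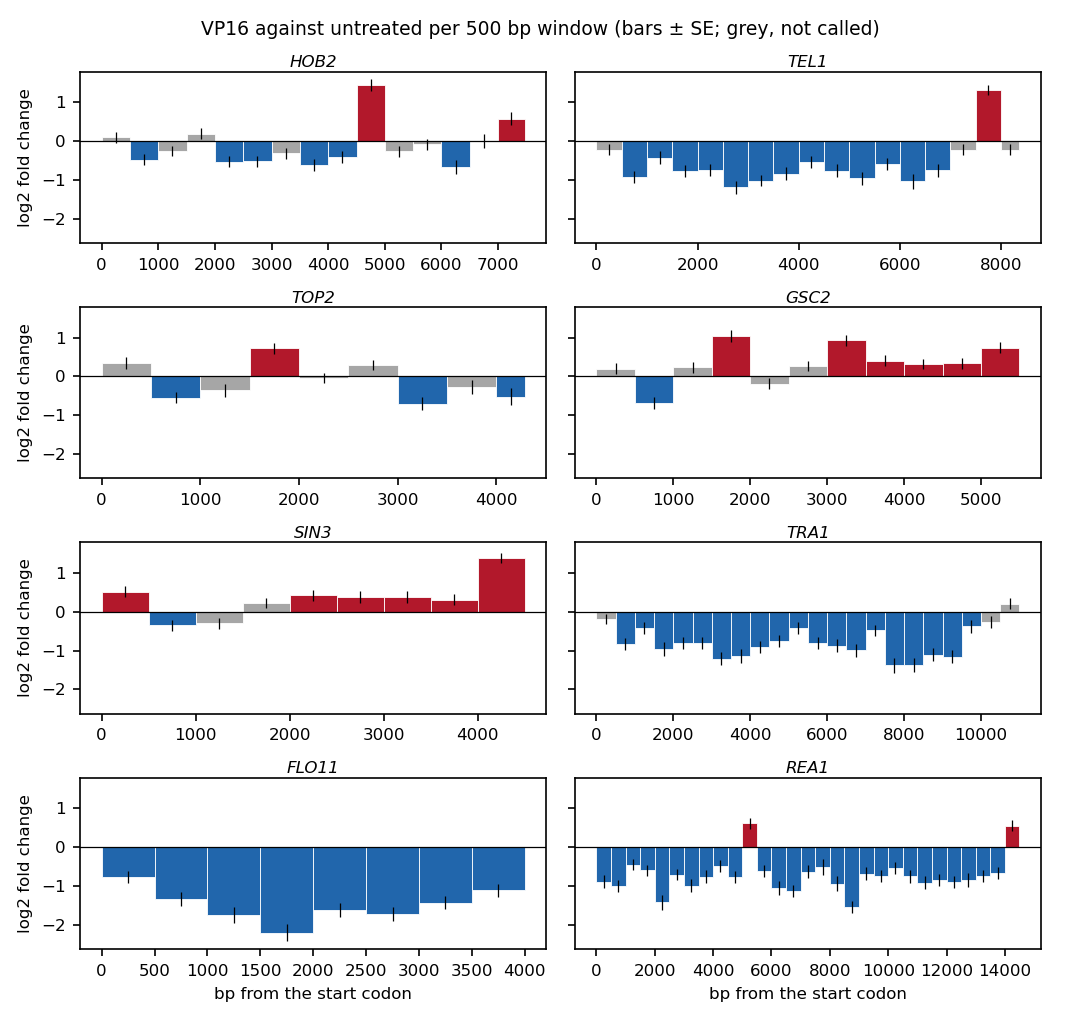
Log2 fold change, VP16 against untreated, of each 500 bp window along 8 long reading frames, from the start codon; bars carry standard errors, red is called higher, blue called lower and grey not called (edgeR quasi-likelihood, adjusted p under 0.05). HOB2 and TEL1 each have an isolated window above 1.3, GSC2 and SIN3 have 6 higher windows each, and all 8 windows of FLO11 are lower.

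Whether the split of hits between windows changed, apart from the frame as a whole, was tested per frame with the F test of edgeR's diffSpliceDGE. At an adjusted p under 0.05, 173 of the 176 long frames (98.3%) were redistributed, against 65.5% of all 4166 frames tested and 88.4% of the frames from 2000 to under 4000 bp. Frames with more windows are called more easily, so these shares are not on equal terms. LTE1 (adjusted p = 0.111), SEC7 (0.0604) and NUP159 (0.101) were not called. The smallest p-values belonged to TOM1, an E3 ubiquitin ligase (adjusted p = 2.96e-24), VPS13, a bridge for lipids between membranes (6.49e-24), STH1, the ATPase of the RSC remodeller (5.88e-21), TEL1 (1.71e-20) and SPA2, a scaffold of the polarisome (2.33e-20). TOM1 had 14 of 20 windows lower and 2 higher, and VPS13 had 10 of 19 lower and 2 higher.

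Strand made little difference over whole frames. The coding strand took 49.7% of the hits with VP16 (49.0% to 50.1%) and 50.4% untreated (50.0% to 50.8%). At the ends of the frames 1 library stood apart. In VP16-treated pdr1sae2 replicate 1 the coding strand took 38.2% of hits in the first 500 bp and 56.1% in the last 500 bp, against 51.1% to 53.9% and 45.2% to 49.1% in the other VP16 libraries and 48.3% to 50.7% and 49.5% to 52.1% untreated. The same library gave 38.7% and 55.8% in frames from 2500 to under 4000 bp. Densities above sum the strands.

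The strains were compared last, as contrasts of the 6 group means in edgeR's quasi-likelihood model. No long frame passed an adjusted p of 0.05 for pdr1sae2 against pdr1 with VP16, for pdr1mre11 against pdr1 with VP16, or for the difference of either mutant's VP16 response from that of pdr1. Over all regions 0%, 0.00884%, 0% and 0% were called in these comparisons. At an unadjusted p under 0.05 there were 1, 28, 0 and 1 long frames with edgeR and 1, 26, 0 and 1 with DESeq2, which called none either. These counts moved with single libraries. Without VP16-treated pdr1 replicate 1 they were 1, 97, 2 and 30, and without VP16-treated pdr1 replicate 2 they were 48, 1, 28 and 1. The second count was 6 without VP16-treated pdr1mre11 replicate 1 and 53 without its replicate 2, and with a replicate block the 4 counts were 2, 52, 0 and 4. No window of a long frame was called for pdr1sae2 or pdr1mre11 against pdr1 with VP16, where 0.00452% and 0.0181% of all windows were, although 33 and 174 windows had an unadjusted p under 0.05 with edgeR and 3 and 90 with DESeq2. Without VP16-treated pdr1 replicate 1 the edgeR counts were 48 and 400, and without VP16-treated pdr1 replicate 2 they were 157 and 65. The first was 87 without VP16-treated pdr1sae2 replicate 2.

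For pdr1mre11 against pdr1 with VP16, 27 of the 28 frames at an unadjusted p under 0.05 were lower in pdr1mre11, and 6.81% of all regions passed that level. The number of such frames ranged from 1 to 97 with 1 VP16-treated pdr1 library left out. The median fold change of the long frames was -0.19 in pdr1mre11, against -0.05 over all frames, and for pdr1sae2 it was 0.06 in both. The SE of a frame had a median of 0.16 for pdr1mre11 and 0.17 for pdr1sae2, so a difference of the size of these medians was not detectable at this depth and number of libraries.

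The long frame with the smallest p in 3 of the 4 comparisons was FKS1. With VP16 it had densities of -0.24 and -0.52 in pdr1sae2 and -0.24 and -0.23 in pdr1mre11, against -1.04 and -0.55 in pdr1. The fold change was 0.38 for pdr1sae2 (adjusted p = 0.998, from 0.438 to 1 over the alternative settings) and 0.54 for pdr1mre11 (adjusted p = 0.654, from 0.261 to 0.970). The pdr1 replicates differed from each other by more than the pdr1sae2 replicates did. For the response in pdr1sae2 the smallest p belonged to GDB1, at -0.37 (adjusted p = 0.999, from 0.938 to 1).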

How the data were processed

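The authors aligned paired-end CC-seq reads to their Cer3H4L2 build with bowtie2 (version not given in the sources used here). Their mapping quality setting for yeast was 0. They deposited per library the counts of hits at each nucleotide and strand, without normalization and without molecular identifiers. PCR copies of a molecule are thus counted as separate hits. The authors removed rDNA, telomeres, retrotransposons and long terminal repeats. Runs of at least 100 bp without a hit in any library were treated as masked (537901 bp, 4.45% of the nuclear genome). The authors also deposited a scaling factor per group, a ratio from a spike-in of human DNA. Their pooled maps were not used.

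Hits of both strands were summed per reading frame, intergenic region or 500 bp window, over R64 coordinates. Chromosome III, which carries the inserted sequence of that build, was left out, as were genes whose symbols the selection rule omits. Regions needed 50 unmasked bases and windows 250. Densities are hits per unmasked base over the nuclear mean. Window densities used a pseudocount of 0.5 hits. Fits used edgeR 4.0.16 in R 4.3.3 with TMM factors, filterByExpr, all 12 libraries and strain as a term, or the 6 group means for strain contrasts. Calls are at an adjusted p under 0.05. The region tests of VP16 against untreated and of pdr1mre11 against pdr1 with VP16, and the redistribution test, were checked on simulated data. At a log2 change of 0.5 they recovered 78%, 19% and 20% of the changed features, in that order. At a log2 change of 1 they recovered 99%, 85% and 100%. Of the features called, 3.80%, 7.14% and 2.44% had not been changed. Only 100 features were changed at each size, whereas with VP16 33.3% of regions were called lower and 34.4% higher. The scaling was thus not checked under so wide a change. The tests of single windows were not checked in this way. Alternatives were DESeq2 1.42.0, other scalings and filters, a replicate block, other windows, each position counted 1 time per library, and leaving out each library.

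The long frames, gene lists and tests were chosen with earlier results of these data known. The frames named are the 3 longest, the 5 largest rises (1 qualified) and falls called and moving alike in all 6 pairs, the 5 highest and lowest VP16 densities, the 5 smallest redistribution p-values, TOP2, the kinases and ABC transporters, and the smallest p in each strain contrast. The windows named are the 5 largest rises and falls. Other frames named as examples of lists or paralogues were picked after their values were seen. The labels call the replicates biological.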

Additional observations from a re-analysis of the deposited data

Results flagged for a closer look

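With 6 libraries per treatment, pooled over strains, 5 library values lay far from the other libraries of their treatment by a gap test that marks about 1 in 20 groups by chance. VP16-treated pdr1sae2 replicate 1 accounted for 3 of them. Its coding strand share was 38.2% in the first 500 bp of the long frames and 56.1% in the last 500 bp, and its density of frames under 1000 bp was 0.12 in log2 units over the library mean. In untreated pdr1mre11 replicate 2 the density of the first 500 bp of the long frames was -0.091. In VP16-treated pdr1mre11 replicate 2 the density of intergenic regions between convergent genes was 0.047.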

How the results depend on the processing

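With spike-in library sizes the direction turned, because hits then count against human DNA and not against the library itself. There 168 long frames were called, all higher, and 1246 windows, 1243 of them higher and 3 lower. These calls leave out the error of the calibration, as the factor was the same for both replicates of a group. Log2 fold changes of the named frames became 0.19 for LTE1, 0.41 for FLO1, 0.82 for TEL1, 0.65 for MEC1, 0.53 for TRA1, 0.57 for TOR1, 0.59 for TOR2, 0.64 for DYN1, 0.58 for REA1, 0.30 for NUP188, 0.38 for NTE1, 0.85 for TOM1, 1.00 for VPS13, 0.65 for STH1, 1.09 for SPA2, 1.44 for HAP1, 1.08 for FKS1, 1.39 for GDB1 and 1.23 for TOP2. Among transporters they became 0.78 for SNQ2, 1.05 for YCF1, 1.28 for PDR15, 1.31 for YOR1, 1.12 for VMR1, 0.73 for PDR11, 0.41 for YBT1, 0.98 for BPT1, 1.09 for PDR18, 0.89 for AUS1, 0.49 for PDR5, 1.31 for PDR10 and 1.05 for PDR12. FLO11 stayed below 0 (-0.13) and was no longer called. With at least 50 hits in every library PDR15 (0.040), HAP1 (0.20) and TOP2 (0.0080) changed sign, and 135 long frames were called, 132 lower, with a median of -0.34 against -0.58. TMM factors were then computed again from the 4732 regions this filter kept, whose median was -0.01. The zero point of these fold changes thus differs from that of the main fit, and its part in the shifts was not tested. No window of a long frame was tested under that filter.

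With each position counted 1 time per library, the VP16 minus untreated difference was -0.35 for density, 0.50 for the end ratio, -0.27 percentage points for the coding strand share and 26.5 for the cytosine share. Repeated reads of strong sites count less there. The start ratio differed by 0.62 for the first 250 bp and 0.23 for the first 1000 bp, and the end ratio by 0.51 for the last 1000 bp. Redistribution was called in 176 long frames with 250 bp windows, 144 with 1000 bp windows, 164 by the Simes test and 141 with each position counted 1 time. The other scalings and filters, DESeq2 and leaving out repeated frames called 158 to 168 long frames.

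Leaving out 1 library gave 161 to 166 long frames and 1141 to 1259 windows called, 167 to 174 frames redistributed, and differences of -0.60 to -0.48 in density, 0.37 to 0.49 in the start ratio, 0.63 to 0.76 in the end ratio, -0.81 to -0.55 in the coding strand share and 32.6 to 38.7 in the cytosine share. For pdr1mre11 against pdr1 it gave 0 to 1 windows. The 1 window was LTE1 from 1001 to 1500 bp (-1.90, adjusted p = 0.0166), without VP16-treated pdr1 replicate 1. Same-numbered VP16 and untreated libraries of a strain did not deviate together (correlations of 0.07 in pdr1, 0.04 in pdr1sae2 and -0.17 in pdr1mre11), so the main fits had no term for pairs. The counts of same-numbered pairs given above, also used to choose named frames and windows, thus match libraries by number only. Same-numbered untreated libraries did deviate together across strains (0.33 to 0.41), where replicate 2 was always the shallower, and VP16 libraries less evenly (-0.01 to 0.25). With a replicate block 171 long frames and 1315 windows were called, 175 frames redistributed and 0 frames in any strain contrast, and 165 frames with total nuclear hits and the block. SIN3, PDR10 and YOR1 gained a call under the block. With 2 libraries per group and 28 to 120 hits in the median window, differences between strains were least well resolved.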
